A study of Mus musculus with 6 samples.

Results

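The core circadian clock of mouse liver was followed through 9 genes, chosen by name as rows of a table of transcript levels: the activators Arntl (also called Bmal1), Clock and Npas2, and the repressors Per1, Per2, Per3, Cry1, Cry2 and Ciart. All 9 were present, as 9 of 10946 named genes, and for Arntl, Per1 and Cry2, which had 2 transcript rows each, the transcript with the higher mean was used. The livers were those of 8-week-old males of the inbred strain C57BL/6J, and the labels name no allele or transgene. Fasted mice (libraries 1, 3 and 4) went without food for 12 h from 10 pm, whereas refed mice (libraries 5, 7 and 8) went without food for 12 h from 10 am and then had 12 h of a high sucrose diet, 69% sucrose and 10% fat, from 10 pm. Every liver was collected at 10 am, so clock transcripts were compared at the same clock hour after a night spent either unfed or on sucrose-rich food. The groups therefore differed in when the fast took place as well as in feeding and diet, and these cannot be told apart. The labels do not state the lighting schedule, and no other clock hour was sampled, so the data hold levels at 1 point of the day and no phase or amplitude.

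In the mammalian clock, ARNTL pairs with CLOCK or with its relative NPAS2, and the pair binds E-box sequences and activates transcription. Among the genes it activates are those of its own repressors, the PER and CRY proteins, which enter the nucleus and inhibit the pair, and CIART, which also represses it. A linked loop runs through the nuclear receptors REV-ERB (Nr1d1, Nr1d2) and the ROR family, which repress and activate Arntl and Npas2. In liver, meal timing is known as a strong time cue for this oscillator, and the clock in turn drives daily rhythms of metabolic genes.

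Of the 9 core clock genes, 8 differed between refed and fasted liver, 4 higher and 4 lower, and the direction was not shared within the repressor families. Arntl and Npas2 rose on the activator side, and Per2 and Cry1 rose among the repressors, while Per1, Per3, Cry2 and Ciart fell. Clock did not pass the test. Over all 10889 genes tested, 42.2% were called, 26.4% higher and 15.7% lower in refed liver, at a limma adjusted p under 0.05. With libraries centred on their medians, quantile normalization or TMM scaling, 49.1%, 48.6% and 48.1% of all calls were on the higher side, in place of 62.7%, and the members' calls were 4 higher and 4 lower each time. In these bulk samples, fewer cells of a type and less RNA per cell cannot be told apart. The libraries of the groups did not overlap for 8 of the 9 genes, against 55.4% of all genes tested. A called change of at least 1 on the log2 scale was found for 6 of the 9, against 6.63% of all genes tested. The median absolute log2 fold change was 1.27 for the 9 genes and 0.27 for all tested genes. The members were chosen with earlier results of these data known, so these shares describe them and give no test of the group of genes.

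**Figure D1:**
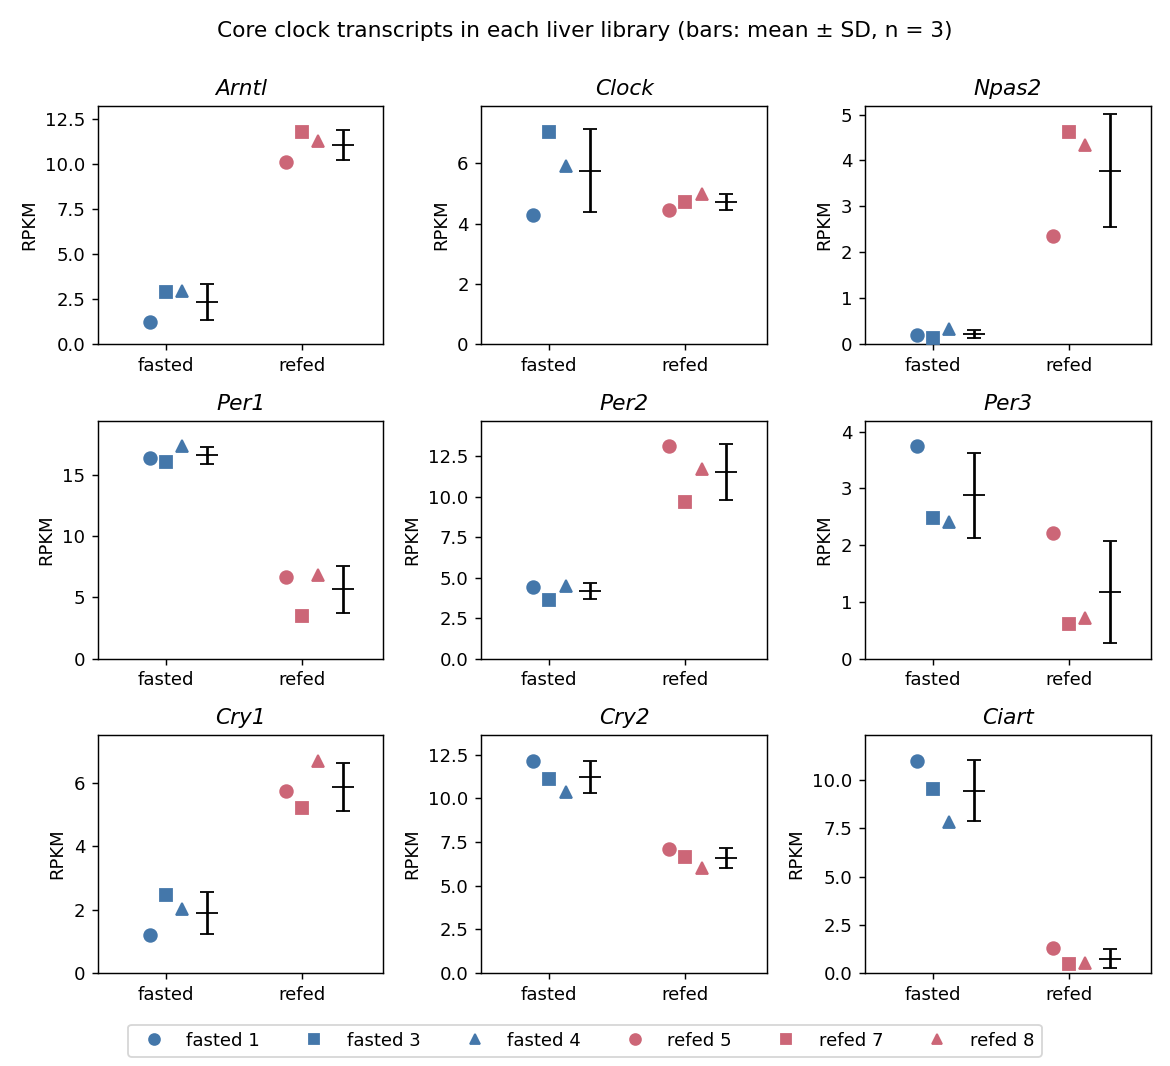
RPKM of the 9 core clock transcripts in each of 6 liver libraries, with the linear level on the y axis and the feeding group on the x axis. Points are libraries and black bars are the mean ± SD of 3. The groups stand apart in every panel other than Clock, and the widest relative gaps are those of Npas2 and Ciart.

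The feeding state of the groups was visible in the reference genes of each state. Fasn, the fatty acid synthase, was at 19.5 ± 2.65 RPKM (SD, n = 3) in fasted and 1232 ± 283 in refed liver, and Pck1, a gluconeogenic enzyme, at 2084 ± 152 and 58.6 ± 49.9. Reads were listed only for genes the authors called and summed to between 26237934 and 33219013 per library. All 5 hepatocyte markers were measured, summing to 46218 to 53919 RPKM in fasted and 44184 to 47201 in refed libraries. Alb, the albumin gene, did not pass (log2 fold change 0.049, limma adjusted p = 0.83). The cytochrome gene Cyp2e1 fell from 5310 to 1903 RPKM (-1.49, limma adjusted p = 0.00013) and Hnf4a, a hepatocyte transcription factor gene, from 220.2 to 176.5 RPKM (-0.32, limma adjusted p = 0.041). Kupffer cell markers (6 of 6 measured) summed to 72.9 RPKM in fasted 1 and to between 24.2 and 40.4 in the other 5 libraries, and none of the 6 passed the test between groups. Of 5 bile duct markers Krt19, Krt7 and Sox9 were higher in refed liver, beside 26.4% of all genes tested. The list summed to between 17.9 and 27.0 RPKM in fasted and 21.3 and 29.6 in refed libraries. Spp1 and Epcam did not pass, and Spp1, at mean levels of 20.1 RPKM in fasted and 18.7 in refed liver, made up most of these sums. The called markers were low, with means from 0.775 to 2.35 RPKM for Krt19, 0.366 to 0.895 for Krt7 and 1.74 to 2.90 for Sox9. Krt19 and Krt7 stayed under 1 RPKM in every fasted library. The deposited values keep only transcripts that reach 1 RPKM in some library, so both are present only through refed libraries, which favours a higher call. The part of these cell markers, hepatocyte markers included, in the clock results was not tested. Endothelial markers summed to 29.0 to 32.9 RPKM in fasted and 31.6 to 37.5 in refed libraries, with none of 5 called, and 1 of 5 stellate cell markers (Des) was higher. Markers of neutrophils (2 of 3 measured, summing to 0.326 to 3.82 RPKM in fasted and 0.954 to 3.62 in refed libraries) and of erythroid cells (2 of 3) had no call, and the 5 lymphocyte markers were not analysed here.

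E-boxes and the related elements named above can be looked for in the sequence around each start site. RefSeq windows of the build GRCm38.p6, with 250 bases before and 50 bases after a start site, were available for 8 of the 9 genes, 12 windows in all. Per2 had no window, so its start site was not searched. Motifs were searched on both strands, as CACGTG (E-box), CACGTT (a variant E-box), TTATGTAA or TTACGTAA (D-box, bound by the PAR bZIP factors and NFIL3), TGACGTCA (cAMP response element) and AGGTCA (the core of the ROR and REV-ERB element). These motifs do not share positions with each other in the windows described. The stretches that hold an E-box or a D-box are printed 5′ to 3′ along the gene's strand, with the motif in capitals, because they belong to genes that moved in both directions.
Ciart: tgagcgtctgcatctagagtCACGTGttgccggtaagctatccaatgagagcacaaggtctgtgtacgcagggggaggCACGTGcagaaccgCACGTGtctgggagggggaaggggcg
Per1: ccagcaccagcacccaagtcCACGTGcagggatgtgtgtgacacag
Cry1: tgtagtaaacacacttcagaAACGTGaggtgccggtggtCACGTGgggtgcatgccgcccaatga
Cry2: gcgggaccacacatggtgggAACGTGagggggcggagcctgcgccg
Per3: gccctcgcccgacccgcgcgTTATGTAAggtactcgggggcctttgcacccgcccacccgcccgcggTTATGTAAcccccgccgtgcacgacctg

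The Ciart stretch lies at chr3:95882247-95882364 on the minus strand and holds 3 E-boxes, beginning 116, 58 and 44 bases before the start site. An E-box was found in 7.15% of all 32851 windows, and 3 or more in 0.0883%. The Per1 stretch, chr11:69098763-69098808 on the plus strand, holds 1 E-box 166 bases before the first of 2 start sites. The Cry1 stretch, chr10:85185089-85185153 on the minus strand, holds an E-box 60 bases and a variant E-box, read on the opposite strand, 79 bases before the start site. Cry2 has a variant E-box on the opposite strand in chr2:92434210-92434255, minus strand, 166 bases before its start site, and this motif occurred in 4.68% of windows. The Per3 stretch, chr4:151044796-151044890 on the minus strand, holds 2 D-boxes, 205 and 158 bases before the start site, a motif in 1.06% of windows, with 2 or more in 0.0244%. The core AGGTCA, found in 16.3% of windows, was present for Per1, in 1 of 2 Arntl windows and in 1 of 3 Clock windows, and the Npas2 window held none of the motifs searched. The cAMP response element, in 1.79% of all windows, was found in no window of these genes, those of Per1 included. Thus genes with an E-box within 250 bases before a start site included Ciart and Per1, which fell, and Cry1, which rose. A match describes the letters of these windows and not binding.

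Among the activators, Arntl and Npas2 rose. Arntl encodes the obligate partner of the activating pair. Its level was 1.21, 2.88 and 2.92 RPKM in fasted 1, 3 and 4 and 10.1, 11.8 and 11.3 RPKM in refed 5, 7 and 8. The lowest refed library was thus above every fasted one, and fasted 1 was the lowest of all. The rise from 2.33 ± 0.976 to 11.1 ± 0.858 RPKM (SD, n = 3) was 4.74-fold, with a log2 fold change of 1.90 ± 0.21 (SE, limma adjusted p = 0.00039). All fitted changes were computed after 1 RPKM had been added and the log2 taken, and this makes the changes of low genes look smaller than they were.

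Npas2 encodes a relative of CLOCK that can take its place in the pair. It was nearly silent in fasted liver, at 0.191, 0.136 and 0.322 RPKM in fasted 1, 3 and 4, and was at 2.36, 4.63 and 4.33 RPKM in refed 5, 7 and 8. Refed 5 was the lowest of its group and still above every fasted library. The ratio of group means was 17.5, from 0.216 ± 0.0955 to 3.77 ± 1.23 RPKM (SD, n = 3), the widest rise of the 9 genes. The fitted log2 fold change was 1.94 ± 0.20 (limma adjusted p = 0.00024), and it was 2.54 with 0.5 RPKM and 3.60 with 0.1 RPKM added before the log in place of 1. The authors' deposited table lists 45 to 88 Npas2 reads in the fasted and 714 to 1705 in the refed libraries. The deposited RPKM values keep only transcripts that reach 1 RPKM in some library. Npas2 is therefore present only through its refed levels, which favours a higher call.

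Clock, which encodes the usual partner of ARNTL, was at 4.30, 7.05 and 5.93 RPKM in fasted 1, 3 and 4 and at 4.44, 4.72 and 4.995 RPKM in refed 5, 7 and 8. The fasted libraries spanned the refed ones, so the groups overlapped. The log2 fold change was -0.22 ± 0.15 (limma adjusted p = 0.26), with a 95% interval from -0.56 to 0.12. Without fasted 1, the lowest fasted library, Clock passed as lower in refed liver (-0.39 ± 0.10, limma adjusted p = 0.025).

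The Period genes, whose products form the repressor complex with the cryptochromes, did not move together. Per1, the Period gene known for acute induction by hormone and cAMP signals, was at 16.3, 16.0 and 17.3 RPKM in fasted 1, 3 and 4 and at 6.65, 3.45 and 6.80 RPKM in refed 5, 7 and 8. All refed libraries were lower, and refed 7 was the lowest. Per1 fell from 16.6 ± 0.667 to 5.63 ± 1.89 RPKM (SD, n = 3), 2.94-fold, with a log2 fold change of -1.45 ± 0.20 (limma adjusted p = 0.0011).

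Per2, its closest relative in clock function, moved in the opposite direction. It was at 4.45, 3.59 and 4.48 RPKM in fasted 1, 3 and 4 and at 13.1, 9.70 and 11.7 RPKM in refed 5, 7 and 8. The 3 refed libraries were all above the fasted ones. Mean levels were 4.17 ± 0.507 and 11.5 ± 1.72 RPKM (SD, n = 3). Per2 thus rose 2.76-fold, with a log2 fold change of 1.27 ± 0.13 (limma adjusted p = 0.00021).

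Per3, a Period gene that is dispensable for rhythm generation in mice, was at 3.74, 2.48 and 2.40 RPKM in fasted 1, 3 and 4 and at 2.21, 0.606 and 0.712 RPKM in refed 5, 7 and 8. Refed 5 lay just under the lowest fasted library, and the other refed libraries were well below. The log2 fold change was -0.89 ± 0.27 (limma adjusted p = 0.029). The call was lost without fasted 1, fasted 3, refed 7 or refed 8, at limma adjusted p-values of 0.083, 0.054, 0.087 and 0.088, and the change was -1.41 with 0.1 RPKM added before the log.

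The cryptochromes, the direct inhibitors of the activating pair, also split. Cry1, the stronger repressor of the pair in mouse cells, was at 1.19, 2.48 and 2.02 RPKM in fasted 1, 3 and 4 and at 5.73, 5.20 and 6.70 RPKM in refed 5, 7 and 8. All refed libraries were higher. Mean levels of Cry1 were 1.90 ± 0.649 and 5.88 ± 0.761 RPKM (SD, n = 3). The rise was 3.10-fold, with a log2 fold change of 1.27 ± 0.17 (limma adjusted p = 0.00098). Cry2 was at 12.2, 11.1 and 10.4 RPKM in fasted 1, 3 and 4 and at 7.13, 6.65 and 6.01 RPKM in refed 5, 7 and 8, with all refed libraries lower. Its fall, 1.70-fold, was the smallest called change of the 9 genes (log2 fold change -0.69 ± 0.09, limma adjusted p = 0.001).

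Ciart, which encodes a repressor that binds the activating pair, showed the largest fitted change with 1 RPKM added before the log. It was at 11.01, 9.54 and 7.83 RPKM in fasted 1, 3 and 4 and at 1.30, 0.446 and 0.499 RPKM in refed 5, 7 and 8. The groups were far apart, and refed 5 was the highest refed library, as it was for Per3. Ciart fell 12.6-fold, from 9.46 ± 1.59 to 0.748 ± 0.478 RPKM (SD, n = 3), with a log2 fold change of -2.60 ± 0.19 (limma adjusted p = 6.4e-05). In absolute size this stood at the 99.4th percentile of all tested genes, with Npas2 at 98.5 and Arntl at 98.4. The lead of Ciart over Npas2 depended on the added value. With 0.1 RPKM added the changes were -3.62 for Ciart and 3.60 for Npas2, and the ratio of group means was larger for Npas2 (17.5).

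**Figure D2:**
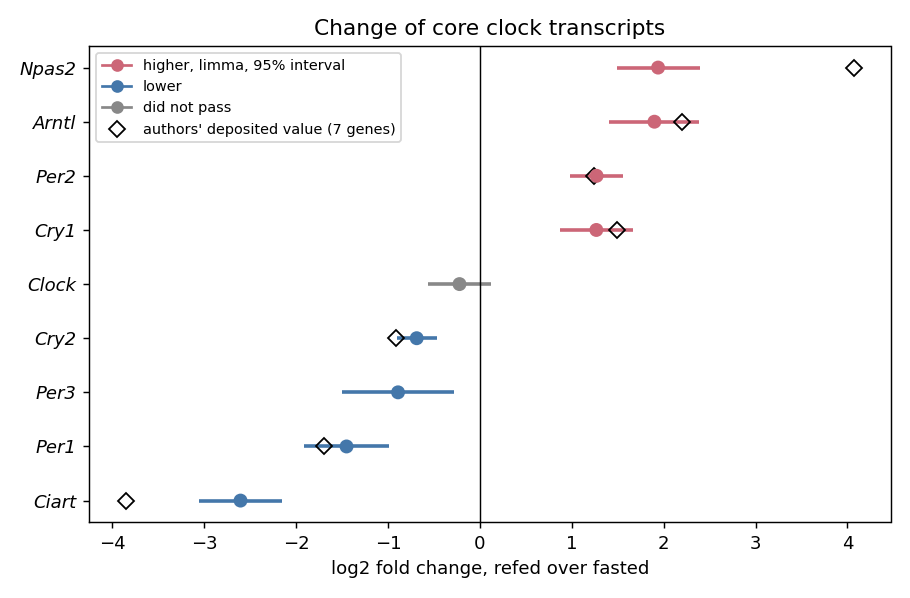
Log2 fold change of refed over fasted liver on the x axis for each core clock gene, with limma estimates as filled points and 95% intervals as lines. Open diamonds are the values in the authors' deposited table for 7 genes. Both sets of values come from the same libraries. The signs are the same for all 7. The authors' values lie farther from 0 than the fitted ones for every gene but Per2, most of all for Npas2 (4.07) and Ciart (-3.85).

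The authors' deposited table lists 7 of the 9 genes among its calls, with Ciart under its older name Gm129, and does not list Clock or Per3. In the authors' deposited table the log2 fold changes were 4.07 for Npas2, 2.20 for Arntl, 1.49 for Cry1, 1.245 for Per2, -0.91 for Cry2, -1.70 for Per1 and -3.85 for Ciart. Their signs were those of the RPKM comparison for all 7, and the false discovery rates in the authors' deposited table ran from 8.5e-43 (Npas2) to 1.2e-08 (Cry1). The shrunk log2 fold changes that the authors list beside them were all smaller in size, with 3.56 for Npas2 and -2.62 for Ciart. Because the authors' deposited table comes from the same libraries and lists called genes only, the shared signs are not separate evidence. The same table places the genes in mm9, the build named in the submitters' processing notes, with Arntl on chromosome 7 from 120350979 to 120457636 (plus strand), Npas2 on chromosome 1 from 39250576 to 39420079 (plus strand) and Per1 on chromosome 11 from 68908719 to 68923462 (plus strand). On the minus strand it places Per2 on chromosome 1 from 93312561 to 93355907, Cry1 on chromosome 10 from 84594447 to 84647799, Cry2 on chromosome 2 from 92243803 to 92274200 and Ciart on chromosome 3 from 95682426 to 95686174. These intervals span exons and introns. In GENCODE M21, exons of Cry2 share 295 bases with the antisense gene D930015M05Rik and those of Arntl share 33 bases with Gm45355. Without a statement that reads were counted by strand, reads from these overlaps cannot be assigned.

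The Period genes and the cryptochromes each held opposite changes, and Npas2 rose while Clock did not pass. The make-up of each family thus differed between the groups. Per1 gave 70.2% ± 3.17 (SD, n = 3) of summed Period RPKM in fasted and 30.2% ± 5.13 in refed liver, and Per2 gave 17.6% ± 1.22 and 63.7% ± 5.92. The Period sum itself was 22.1 to 24.5 RPKM in fasted and 13.8 to 22.0 in refed libraries, so the predominant transcript of the family changed from Per1 to Per2. Cry1 gave 14.5% ± 4.88 of summed cryptochrome RPKM in fasted and 47.1% ± 4.90 in refed liver, while the sum was 13.1 ± 0.645 and 12.5 ± 0.548 RPKM. Npas2 gave 3.76% ± 1.68 of the sum of Clock and Npas2 in fasted and 43.6% ± 7.80 in refed liver.

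The difference between relatives was also tested as a log2 ratio of RPKM + 1 within each library, for 4 pairs. The ratio of Per2 to Per1 went from -1.77 ± 0.11 (SD, n = 3) in fasted to 0.95 ± 0.29 in refed liver, a change of 2.72. The ratio of Cry1 to Cry2 changed by 1.95 and that of Npas2 to Clock by 2.16. For these 3 pairs the libraries of the groups did not overlap, and the two-sided exact permutation p was 0.1, the smallest that 3 against 3 allows (adjusted p = 0.13 over 4 pairs). The ratio of Per3 to Per1 changed by 0.56 with overlapping groups (exact permutation p = 0.2, adjusted p = 0.2). A design of this size cannot pass a threshold of 0.05 in this test.

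**Figure D3:**
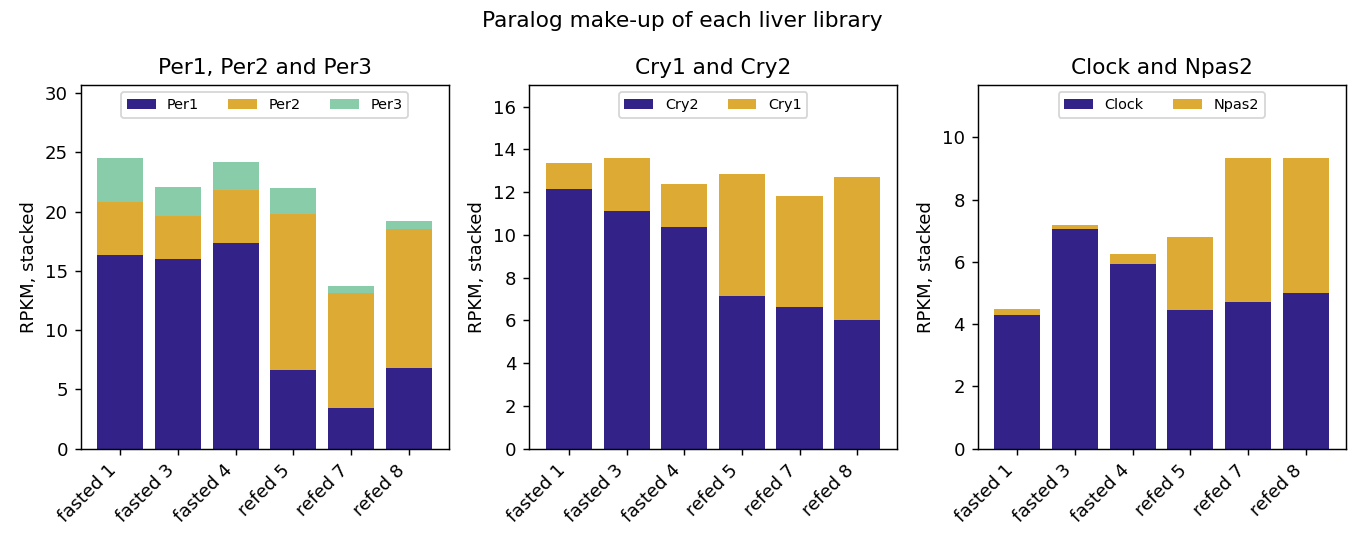
Stacked RPKM of the Period, cryptochrome and Clock with Npas2 families in each of 6 liver libraries. Per2 takes the larger part of the Period bar in refed libraries (63.7% on average against 17.6% in fasted), Cry1 approaches the level of Cry2, and Npas2, at 3.76% in fasted libraries, reaches 43.6%.

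RPKM is scaled by transcript length, so levels can be ordered across genes within a group. In fasted liver the order of mean RPKM ran from Per1 (16.6) through Cry2 (11.2), Ciart (9.46), Clock (5.76), Per2 (4.17), Per3 (2.87), Arntl (2.33) and Cry1 (1.90) to Npas2 (0.216). Libraries of Cry2 and Ciart overlapped, as did those of each neighbouring pair from Clock down to Cry1, so only Per1, the step from Ciart to Clock and Npas2 were set apart from their neighbours. In refed liver it ran from Per2 (11.5) and Arntl (11.1), which overlapped, through Cry2 (6.60), Cry1 (5.88), Per1 (5.63), Clock (4.72) and Npas2 (3.77), where each neighbouring pair overlapped, to Per3 (1.18) and Ciart (0.748), which overlapped. Thus Ciart went from the third place to the last, and Arntl from the seventh to the second. Ciart was at the 60.7th percentile of all tested genes in fasted mean RPKM and at the 1.9th in refed liver, while Arntl went from the 23.6th to the 63.0th. Genes that stay under 1 RPKM in every library are absent from the deposited values, so low levels rank lower here than among all genes.

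The position of each library within its group was counted for the called members and for all called genes, and these counts were not tested. Of the 8 called genes, fasted 1 was the fasted library farthest from the refed ones for 5 (Arntl, Per3, Cry1, Cry2 and Ciart), fasted 3 for 2 and fasted 4 for 1. Over all called genes fasted 1, 3 and 4 held that position for 38.9%, 36.5% and 24.6%. Refed 5 was the refed library nearest to the fasted ones for 5 of the 8 (Arntl, Npas2, Per3, Cry2 and Ciart), and for 32.6% of all called genes. Refed 7 was nearest for 28.9% of all called genes and refed 8 for 38.4%, the largest share. Fasted 1 is also the library with the highest Kupffer cell marker sum, given above. Without fasted 1, 4 core clock genes were called higher and 4 lower, with Clock in place of Per3, and the log2 fold change of Arntl was 1.63 and that of Cry1 1.08.

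**Figure D4:**
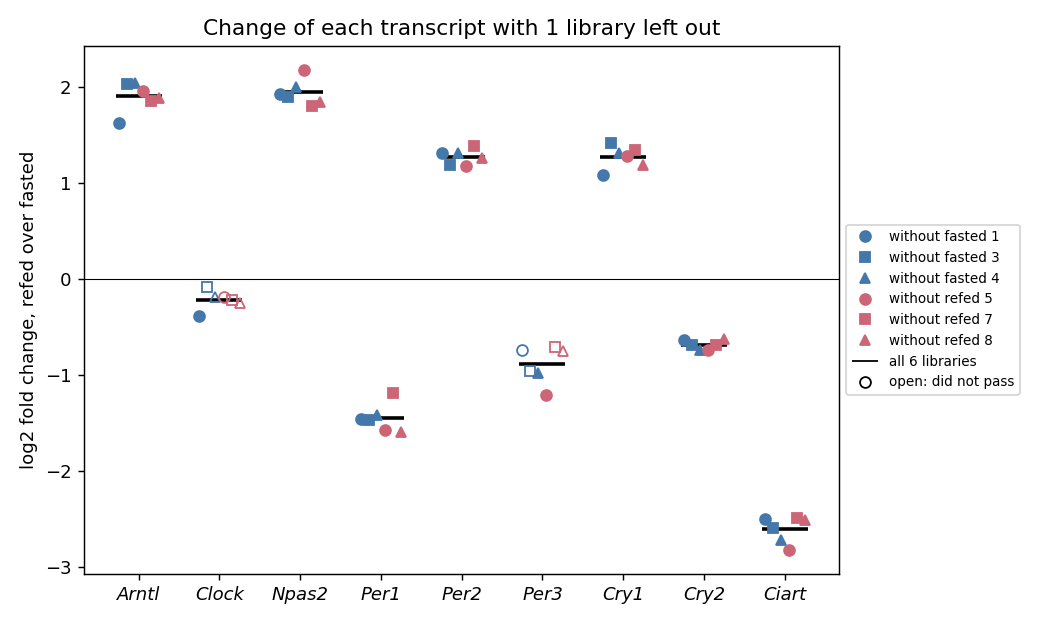
Log2 fold change of each core clock gene (y axis) with each of the 6 libraries left out in turn, as points, and with all libraries, as black bars. Open symbols did not pass a limma adjusted p of 0.05. No sign changes, the calls of Per3 are lost in 4 of 6 cases, and Clock passes only without fasted 1.

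Other genes of the clock were examined in 3 lists, 47 genes in all, of which 45 were tested. Among 11 tested feedback and output factors, 6 were lower, 3 higher and 2 did not pass, beside 15.7% lower and 26.4% higher over all genes tested. The PAR bZIP gene Dbp, a direct target of the activating pair that drives output genes through D-boxes, was at 43.7 ± 8.80 RPKM (SD, n = 3) in fasted and 1.36 ± 1.22 in refed liver. Its log2 fold change of -4.34 ± 0.31 (limma adjusted p = 5.5e-05) was the largest change among clock genes tested. Its relative Tef fell by 1.58 on the log2 scale, and Nr1d1, which encodes the Arntl repressor REV-ERB alpha, fell from 64.9 ± 1.69 to 23.5 ± 11.6 RPKM (-1.53 ± 0.29, limma adjusted p = 0.004). The repressor gene Bhlhe40 (also called Dec1) rose 3.48-fold and Nfil3, a repressor acting at D-boxes, 2.02-fold. The lower genes also included Hlf, Nr1d2 and Noct, and those that did not pass were Rora (log2 fold change -0.21) and Bhlhe41 (0.23).

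Another list holds genes that act on clock proteins. Of its 18 genes for kinases, ubiquitin ligase subunits and a deubiquitinase, 15 did not pass, 2 were higher and 1 was lower, beside 42.2% called over all genes tested. The median absolute log2 fold change was 0.12, against 0.27 for all tested genes. The lower one was Usp2, a deubiquitinase gene known for rhythmic expression in liver, which fell 10.3-fold from 9.77 ± 1.86 to 0.948 ± 0.395 RPKM (SD, n = 3). Its fitted log2 change was -2.48 ± 0.18, at a limma adjusted p of 5.8e-05. Prkaa2, an AMPK catalytic subunit, rose 1.81-fold, and Ddb1, an adaptor of cullin ubiquitin ligases, 1.251-fold. Csnk1d and Csnk1e, the casein kinases that phosphorylate PER proteins, had log2 fold changes of -0.23 (limma adjusted p = 0.072) and 0.31 (0.08). Of 16 cofactor genes 11 did not pass, 3 were higher and 2 lower. Ppargc1a, a coactivator of ROR receptors, was lower (log2 fold change -0.78 ± 0.16, limma adjusted p = 0.0065), as was the acetyltransferase gene Kat2b (-0.39), and Parp1 (0.70), Sfpq (0.52) and Rack1 (0.39) were higher. These counts depended on the scaling. Of the genes acting on clock proteins, 4, 4 and 3 were lower with median centring, quantile normalization and TMM, in place of 1, and 1, 2 and 1 were higher, in place of 2. Of the cofactors, 4, 5 and 5 were lower in place of 2.

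**Figure D5:**
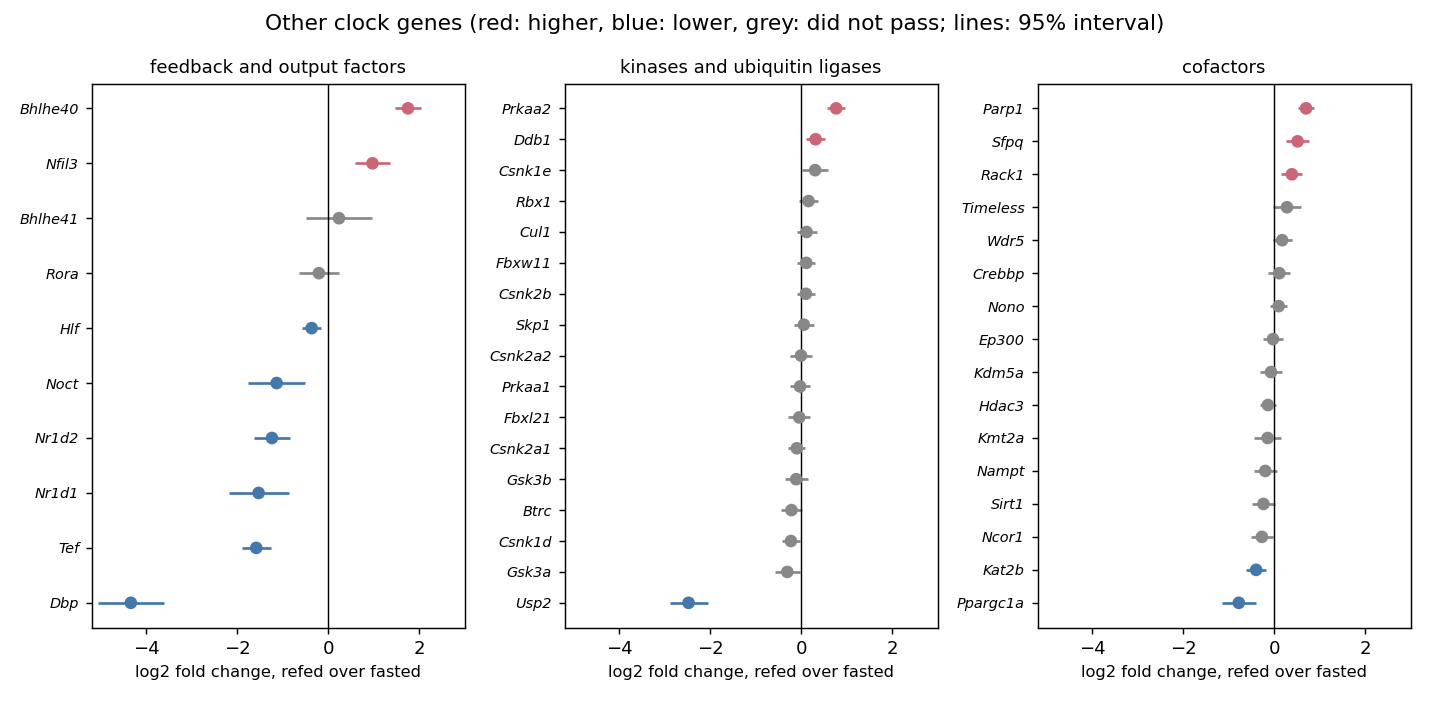
Log2 fold change (x axis) of refed over fasted liver for other clock genes in 3 lists, with 95% intervals as lines. Feedback and output factors spread from -4.34 (Dbp) to 1.75 (Bhlhe40), whereas Usp2 (-2.48) is the only gene of the other lists beyond 1 in size.

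The tested genes most like a member were taken as those with the smallest root-mean-square difference from it over the 6 libraries, after each log2(RPKM + 1) profile was centred on its own mean. Because the 6 libraries form 2 groups, this likeness mostly measures an equal change between them. For Arntl they were Slc30a10, a manganese transporter gene, Ppp1r3b, a glycogen-targeting phosphatase subunit, Celsr1, Tars and Tubb4b, at 0.14 to 0.19 log2 units, against a median of 0.95 over tested genes. For Per1 they were Apoa5, a plasma triglyceride regulator, Creb3l3, a liver transcription factor, Oplah, Abcb4 and Ttpa, at 0.074 to 0.15 (median 0.83). For Ciart they were Usp2, Por, the electron donor of cytochromes P450, Tdo2, a tryptophan dioxygenase, Fbxo21 and Slco1a4, at 0.21 to 0.25 (median 1.38). Usp2 was thus the closest of all tested genes to Ciart, with fasted and refed means of 9.77 and 0.948 RPKM beside 9.46 and 0.748 RPKM.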

How the data were processed

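Total RNA of frozen liver was made into mRNA libraries, per the labels' protocols, 3 fasted and 3 refed, grouped by sample title. RPKM values were computed and deposited by the authors, 1 row per RefSeq transcript, for 14659 transcripts that each reach at least 1 RPKM in some library. The library total used for scaling was not stated in the labels or files. The authors' deposited second table holds, for called genes only, raw read counts beside the log2 fold changes, p-values and false discovery rates of DESeq (per the file headers), so no count test was run on it and full depth is unknown. Per the submitters' processing notes, FastQC, DESeq2, STAR 2.6.0c and mm9 were used, in roles not stated there. The strand setting of counting was not stated either. The deposited p-value column of the RPKM table was not used.

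Transcripts were named by accession through a RefSeq gene table of GRCm38.p6 (14390), by description (184) or by symbol (22), and 63 without a name were left out. Each gene was its transcript with the highest mean RPKM, and 57 genes with a mean under 0.5 RPKM were removed, which left 10889. Values were log2(RPKM + 1), compared with limma 3.58.1 in R 4.3.3 (moderated, trended variances, two-sided, Benjamini-Hochberg adjustment over all genes tested, threshold 0.05) and tested on simulated data. TMM factors came from edgeR 4.0.16. Errors are SD over 3 libraries for means and SE for log2 fold changes. Nothing in the labels ties the libraries to separate animals, and the p-values therefore reflect only how far these samples spread, which may be technical. Chi-square per degree of freedom between replicates was 59.1 to 240, so no library repeated another. The members and lists were chosen with earlier results of these data known. All 9 members were named. Of each other list, the called genes with the 3 largest absolute changes in each direction were named, others being added after their values were seen, and the 5 genes most like Arntl, Per1 and Ciart. Some genes of these lists are counted but not reported here by name. Pseudocounts, filters, scalings, transcript summaries and left-out libraries were varied.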

Additional observations from a re-analysis of the deposited data

How the results depend on the processing

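Across 16 alternatives per gene, the log2 fold changes of Arntl, Npas2, Per1, Per2, Cry1, Cry2 and Ciart kept their sign and their call. Leaving out 1 library at a time gave -1.21 to -0.71 for Per3, which lost its call in 4 of 6 cases, and -0.39 to -0.084 for Clock, which passed without fasted 1. Of the core clock genes 4 stayed called higher, and 3 to 4 were called lower. The kinase and ubiquitin ligase list had 1 to 2 genes higher and 1 to 2 lower with 1 library left out. It had 1 higher and 4 lower with centring, 4 lower with quantile normalization, and 1 higher and 3 lower with TMM, while cofactors had 4, 5 and 5 lower in these scalings. The scalings moved the share of calls on the higher side, over all genes, from 62.7% to 49.1%, 48.6% and 48.1%, and the median log2 fold change of all genes from 0.096 to 0.0088, 0.0066 and 0.0053. With 0.1 RPKM added before the log, the change in the ratio of Per2 to Per1 was 3.04, of Cry1 to Cry2 2.39 and of Npas2 to Clock 3.86, and with 0.5 RPKM the last was 2.78. The change in the ratio of Per3 to Per1 became smaller, at 0.19 with 0.1 RPKM and 0.42 with 0.5 RPKM, in place of 0.56. Smaller added values raise the fitted change of low genes by construction; the cause of the other shifts was not tested. No paired analysis was possible because the groups share no replicate numbers. Full depth is unknown, so no counting intervals are given, and the 3 libraries per group limit precision.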

Other observations

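The second transcript rows of 3 members gave nearly the same levels as those used. For Arntl the other row had a mean over the 6 libraries of 6.59 RPKM against 6.70 RPKM, for Per1 11.09 RPKM against 11.10 RPKM, and for Cry2 8.52 RPKM against 8.91 RPKM. The rows of a gene share exons, so they are not separate measurements. Few reads lay behind the refed level of Ciart: the authors' deposited table gives 148, 57 and 56 for refed 5, 7 and 8, beside 1219, 1214 and 868 for fasted 1, 3 and 4.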
